A study of Caenorhabditis elegans with 20 samples.

Results

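The yolk protein genes *vit-1*, *vit-2*, *vit-4*, *vit-5* and *vit-6* were measured by 10 of the 20563 probesets tested on the *Caenorhabditis elegans* GeneChip. The probesets were found through the probe-to-gene table of the array and not through any measured value. *vit-1* was measured by 177065_at and *vit-2* by 191323_at. *vit-4* was measured by 171723_x_at, 172134_x_at and 172673_x_at, *vit-5* by 172696_x_at, and *vit-6* by 173411_s_at and 190649_at. A further 2 probesets, 172133_x_at and 194239_x_at, are assigned to *vit-4* and *vit-5* together and cannot tell these genes apart, which leaves 8 assigned to a gene of their own. Where 1 value per gene is given below without a probeset, it comes from 171723_x_at for *vit-4* and 173411_s_at for *vit-6*, the probeset of each gene with the highest mean. RefSeq (assembly WBcel235) lists 6 vitellogenin genes, of which *vit-1* to *vit-5* are on chromosome X and *vit-6* is on chromosome IV. *vit-3* lies beside *vit-4* with 0 coding genes between them, and no probeset is assigned to it in the table used.

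Vitellogenins are large secreted lipoproteins that carry lipid into the egg. In *C. elegans* they are made in the intestine of the hermaphrodite, starting with the passage from the last larval stage to the adult, and are released into the body cavity. Growing oocytes then take them up through RME-2, a receptor of the low density lipoprotein receptor family. Males and young larvae do not normally express these genes, so their transcripts are often read as a mark of the adult hermaphrodite stage. By protein sequence *vit-1* and *vit-2* are close relatives, *vit-3*, *vit-4* and *vit-5* form another close group, and *vit-6* is the most distant and encodes a precursor that is cut into smaller yolk proteins.

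RNA came from whole worms of DA1316, a strain that carries, by the labels, avr-14(ad1302), avr-15(ad1250) and glc-1(pk54), where the study's methods name another allele of avr-15, and so lacks normal function of 3 glutamate-gated chloride channel genes whose products are targets of the anthelmintic drug ivermectin (IVM). All 20 arrays, controls included, are of this genotype. Synchronised worms were grown from the first larval stage for 53 hr at 20°C on plates with OP50 bacteria and then moved for 4 hr to 1 of 4 conditions, with 5 arrays each. These were 1 µg/ml IVM in 0.01% v/v DMSO, its control of 0.01% DMSO alone, 100 ng/ml IVM in 0.001% DMSO, and its control of 0.001% DMSO alone. Dose, share of DMSO and experiment change together and cannot be told apart. The methods split the worm suspension of each replicate between drug and control plates, so arrays with the same replicate number in an experiment are called a pair here. The labels call the worms adult in one field and speak of growth to the L4 stage, the last larval stage, in another. Values are log2 probeset intensities made by the authors with RMA, and array medians lay between 5.58 and 5.71. Intensities of different probesets are not comparable with each other, so differences within a probeset are compared below. For some gene lists the summed intensity of the same probesets is also compared between arrays, and bright probesets weigh most in it. In RNA from whole worms, a smaller share of RNA from the intestine and less transcript per intestinal cell cannot be told apart.

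By 1 probeset per gene, the vitellogenin levels of the pair numbered 2 in the 1 µg/ml experiment stood far below those of every other array. This held with and without drug. The *vit-4* probeset 172673_x_at was an exception, with 6.34 and 6.33 against 6.49 on the next lowest array of that experiment. *vit-4* had log2 intensities of 10.47, 5.81, 12.59, 12.44 and 12.26 in replicates 1 to 5 with 1 µg/ml IVM. In the controls of these replicates *vit-4* had 11.60, 5.91, 12.72, 12.86 and 12.35. The IVM array of replicate 2 was thus 92.9-fold below the median of the other 4 IVM arrays, and its control array 99.0-fold below the median of the other 4 controls. In the 100 ng/ml experiment *vit-4* had 12.08, 11.79, 11.17, 12.79 and 11.91 with IVM and 12.22, 12.21, 11.55, 12.34 and 11.41 in the controls, so no array there came near the low pair.

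*vit-5*, whose protein is a close relative of that of *vit-4*, had 11.12, 6.43, 12.86, 12.71 and 12.62 with 1 µg/ml IVM and 11.82, 6.55, 12.95, 13.06 and 12.78 in the controls. Both arrays of replicate 2 were again the lowest, by 75.0-fold and 79.8-fold. *vit-1* had 7.86, 4.70, 10.17, 10.30 and 10.29 with 1 µg/ml IVM and 9.30, 5.04, 10.65, 11.23 and 10.35 in the controls. For *vit-1* replicate 2 was 46.3-fold and 44.0-fold below the others, and replicate 1 was the next lowest in both groups. *vit-2* had 9.69, 4.36, 10.71, 10.54 and 10.54 with 1 µg/ml IVM and 9.62, 5.18, 10.32, 10.72 and 10.38 in the controls. Replicate 2 of *vit-2* was 72.3-fold lower with IVM and 35.97-fold lower in the control. *vit-6*, the gene on chromosome IV, had 12.46, 7.57, 13.11, 12.97 and 12.95 with 1 µg/ml IVM and 12.46, 8.49, 12.73, 13.01 and 12.81 in the controls. Here replicate 2 was 41.8-fold and 19.5-fold lower by 173411_s_at, and 65.9-fold and 26.7-fold lower by 190649_at. The low pair therefore took in every one of the 5 genes, on both chromosomes.

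**Figure D1:**
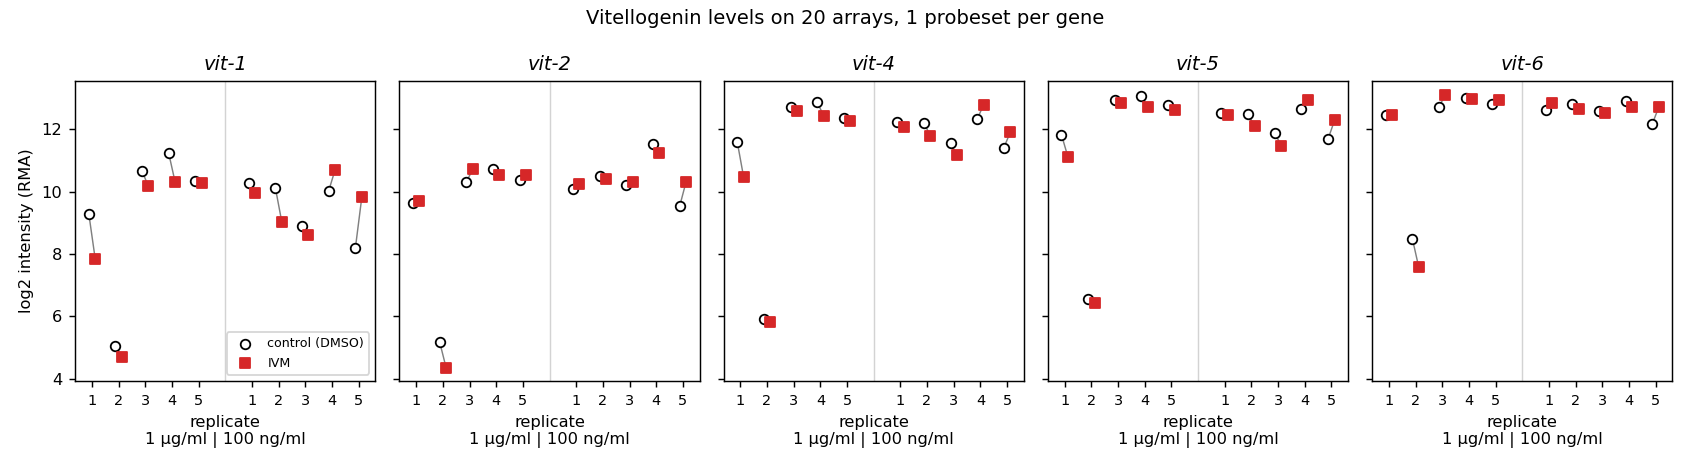
Log2 intensity (RMA) of 1 probeset for each of 5 vitellogenin genes on each of 20 arrays, by replicate and experiment, with open circles for DMSO controls, red squares for IVM and grey lines joining a pair. Both arrays of replicate 2 at 1 µg/ml lie far below all others, for *vit-4* at 5.81 and 5.91 against 10.47 to 12.86 on the other arrays of that experiment.

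Over the members, 10 of 10 probesets had their lowest array at replicate 2 in both groups of the 1 µg/ml experiment, as did 17.2% of all probesets. None had its highest there in both groups, against 18.1% of all probesets. The size was less common. In 9 of 10 probesets replicate 2 was at least 4 log2 units below the median of the other replicates in both groups, against 0.282% of all probesets. The 10th was the *vit-4* probeset 172673_x_at, where replicate 2 was 2.05-fold lower with IVM and 2.88-fold lower in the control. In the 9 others the drop ran from 41.8-fold to 92.9-fold with IVM and from 19.5-fold to 101-fold in the controls. This comparison has 1 pair on its low side and carries no test.

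Genes of the egg and, from the adult cuticle, *col-19* were low on the same arrays. *col-19*, a collagen gene of the adult cuticle, was at 6.54 with IVM and 7.13 in the control of replicate 2, against 11.53 to 12.08 on the other 8 arrays of the experiment. *rme-2*, the gene of the yolk receptor, was at 6.84 and 7.58 against 9.31 to 10.07. *pos-1*, which encodes a maternal RNA-binding protein, was at 7.57 and 8.15 against 11.05 to 11.75, and *chs-1*, which encodes the chitin synthase of the eggshell, was at 5.76 and 6.39 against 8.26 to 9.15. In the list of oocyte and eggshell genes 18 of 19 measured genes had their lowest array at replicate 2 in both groups. None had its highest there. Over all probesets the shares were 17.2% lowest and 18.1% highest. Their summed level, as log2 of the sum of intensities, was 11.88 and 12.39 in replicate 2 against 14.67 to 15.31 on the other arrays. In the germline list 10 of 15 genes were lowest at replicate 2 in both groups, and in the sperm list 1 of 24, against 17.2% of all probesets. Lists closer to yolk itself did not run low as a whole. Of 20 yolk uptake genes, *rme-2* among them, 2 were lowest and 4 highest at replicate 2 in both groups. Of 27 regulators of vitellogenin transcription 2 were lowest and 6 highest. Beside 17.2% lowest and 18.1% highest over all probesets, the counts of these 2 lists say little about their genes. Of 21 genes of lipoprotein assembly, lipid carriers and secretion 1 was lowest and 13 were highest, beside the same shares.

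Most genes of the list of adult cuticle and larval moult ran the other way. *noah-2*, a cuticle gene expressed around the moult, was at 8.61 with IVM and 10.13 in the control of replicate 2, against 5.76 to 7.84 on the other 8 arrays. *mlt-11*, which encodes a protease inhibitor needed for moulting, was at 6.70 and 8.42 against 5.23 to 6.04. This list holds genes of the adult cuticle as well as of the moult. In it 14 of 20 genes were highest at replicate 2 in both groups, against 18.1% of all probesets. Only 1 was lowest, *col-19*, against 17.2% of all probesets. Intestinal genes as a list were not low there. Of 18, 10 were highest at replicate 2 in both groups and 0 lowest, beside the same shares over all probesets. Their summed level was 15.49 and 15.54 against 15.06 to 15.29. Among genes of muscle, hypodermis and neurons the counts were 11 highest and 0 lowest of 16, beside the same shares. Among these, the cuticle collagen gene *dpy-7* of the hypodermis, was at 9.84 and 11.2 against 7.57 to 9.04. Among male-specific genes 1 of 6 was lowest and 0 highest, beside 17.2% and 18.1% of all probesets, so this short list says little. The part of developmental stage in the low vitellogenin levels was not tested.

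**Figure D2:**
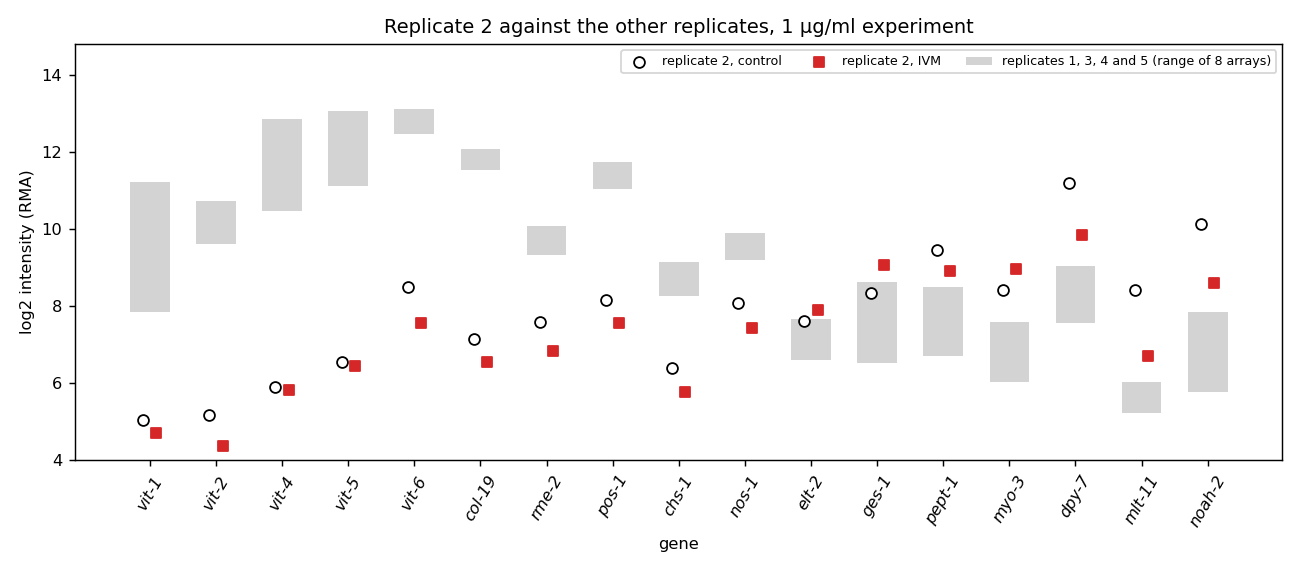
Log2 intensity (RMA) in the 1 µg/ml experiment of 5 vitellogenin genes and of genes from the stage and tissue lists. Grey bars give the range over the 8 arrays of replicates 1, 3, 4 and 5, and symbols give replicate 2 (open circle, control; red square, IVM). *col-19*, *rme-2*, *pos-1*, *chs-1* and *nos-1* lie below their bars with the vitellogenins. *pept-1*, *myo-3*, *dpy-7*, *mlt-11* and *noah-2* lie above theirs. Heights of different genes are not comparable.

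The spread between cultures was wide mainly through this pair. Over the 10 pair means the SD of log2 intensity was 2.03 for *vit-4*, 1.92 for *vit-5*, 1.83 for *vit-2*, 1.73 for *vit-1* and 1.50 for *vit-6*, where the median over all probesets was 0.247. These values lay above those of 99.7% of probesets for *vit-6* and of more for the others. The SD within pairs was 0.26 to 0.63 for these genes. Without replicate 2 of the 1 µg/ml experiment (n = 9 pairs) the SD between cultures was 0.81 for *vit-1*, 0.58 for *vit-4*, 0.53 for *vit-5*, 0.49 for *vit-2* and 0.20 for *vit-6*. *vit-1* then still exceeded 96.6% of probesets, with pair means from 8.58 to 10.76, while *vit-6* exceeded 42.1%, with pair means from 12.45 to 12.99. The 2 *vit-6* probesets differed in this, with 0.36 for 190649_at.

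**Figure D3:**
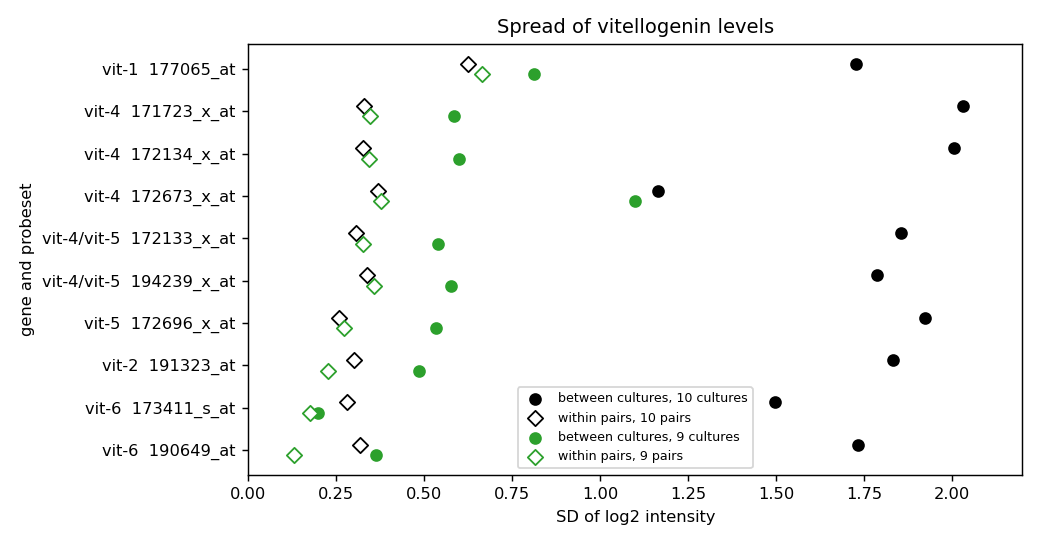
SD of log2 intensity for 10 vitellogenin probesets, between cultures (filled circles, SD of the pair means) and within pairs (open diamonds), over all 10 pairs (black) and over 9 pairs without replicate 2 of the 1 µg/ml experiment (green). The SD between cultures of *vit-4* (171723_x_at) goes from 2.03 to 0.58, while that of 172673_x_at goes only from 1.17 to 1.10.

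By the 1 probeset per gene, the 4 groups stood in the same order for each of the 5 genes over 5 arrays, with 100 ng/ml IVM highest and then its control, the 1 µg/ml control and 1 µg/ml IVM. In the other *vit-4* probesets and in both shared ones the control of the 100 ng/ml experiment came first, as with 12.18 against 12.16 for 172133_x_at, and for 171723_x_at of *vit-4* both groups had means of 11.94 and 11.95. For *vit-1* the group means were 9.62 ± 0.82, 9.50 ± 0.91, 9.32 ± 2.49 and 8.66 ± 2.45 (SD, n = 5 arrays). No neighbours in that order differed by more than the larger of their SDs, for any of the 5 genes. Without replicate 2 the 1 µg/ml control of *vit-1* was at 10.38 ± 0.81 (SD, n = 4 arrays) and 1 µg/ml IVM at 9.66 ± 1.20, and this order placed the 1 µg/ml control first. For *vit-6* the means then lay at 12.87 ± 0.29 with 1 µg/ml IVM (SD, n = 4 arrays), 12.75 ± 0.23 in its control, 12.69 ± 0.11 with 100 ng/ml IVM (n = 5 arrays) and 12.63 ± 0.28 in its control. Whether RMA was run over both experiments together is not stated.

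After 4 hr with 1 µg/ml IVM no vitellogenin probeset passed an adjusted p of 0.05 in limma (Benjamini-Hochberg over 20563 probesets), where 434 probesets passed as higher and 281 as lower, 3.48% in all. Differences within pairs were nevertheless mostly negative for *vit-1*, *vit-4* and *vit-5*. At an unadjusted p under 0.05, 6 of 10 members were lower and none was higher, against 7.55% of all probesets that were lower. *vit-1*, *vit-4* (171723_x_at), *vit-5* and the shared 172133_x_at were lower in 5 of 5 pairs, 4 of 10 members against 7.91% of all probesets. Among these pairs is the low replicate 2, where *vit-4* differed by -0.09 by 171723_x_at and by 0.01 by 172134_x_at. The median log2 fold change was -0.36 over the members and -0.01 over all probesets. Probesets of the close relatives *vit-4* and *vit-5* may bind each other's transcripts, so their counts are not independent.

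*vit-1* differed by -1.44, -0.34, -0.48, -0.92 and -0.06 on the log2 scale in pairs 1 to 5, each negative, with replicate 1 the most and replicate 5 the least. The log2 fold change of *vit-1* was -0.65 (SE 0.18, 95% interval -1.06 to -0.24, limma adjusted p = 0.101). *vit-4* differed by -1.13, -0.09, -0.13, -0.42 and -0.10, so replicate 1 gave most of its mean. Its log2 fold change was -0.37 (SE 0.15, limma adjusted p = 0.281). *vit-5* differed by -0.70, -0.11, -0.09, -0.35 and -0.16, with the same replicate at the low end. Its log2 fold change was -0.28 (SE 0.11, limma adjusted p = 0.224). The shared 172133_x_at and 194239_x_at had -0.38 (SE 0.13) and -0.35 (SE 0.16), with the second lower in 4 of 5 pairs.

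*vit-2* and *vit-6* did not share this sign across pairs. *vit-2* differed by 0.07, -0.82, 0.40, -0.18 and 0.16 in pairs 1 to 5, and its log2 fold change was -0.08 (SE 0.16, 95% interval -0.44 to 0.29, limma adjusted p = 0.893). *vit-6* differed by 0.00, -0.92, 0.38, -0.04 and 0.13, and its log2 fold change was -0.09 (SE 0.17, 95% interval -0.47 to 0.29, limma adjusted p = 0.881). The second *vit-6* probeset gave 0.37, -1.13, 0.38, -0.12 and 0.23, with a log2 fold change of -0.05 (SE 0.21). In all of these the most negative pair was replicate 2, the culture with low levels. Without it the log2 fold changes turned positive, to 0.11 (SE 0.11) for *vit-2* and to 0.12 (SE 0.10) and 0.22 (SE 0.11) for *vit-6*.

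Without replicate 2 the differences of the other genes were -0.73 (SE 0.20) for *vit-1*, -0.44 (SE 0.17) for *vit-4* and -0.33 (SE 0.12) for *vit-5*, and 6 of 10 members were lower in 4 of 4 pairs against 11.3% of all probesets. The count at an unadjusted p under 0.05 was then 6 of 10, against 6.61%, and 1 of 10 passed the adjusted p of 0.05, against 2.85%. That probeset was 172673_x_at of *vit-4*, with -0.55 (SE 0.09, limma adjusted p = 0.0185, n = 4 pairs), while over all 5 pairs it had -0.44 (SE 0.11, limma adjusted p = 0.0714). Replicate 1 carried more weight in the negative values of the others. Without replicate 1, *vit-1* had -0.45 (SE 0.14), *vit-4* -0.18 (SE 0.10) and *vit-5* -0.18 (SE 0.09), and the count at an unadjusted p under 0.05 was 2 of 10, against 5.75% of all probesets, with 4 of 10 lower in 4 of 4 pairs, against 10.7%.

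**Figure D4:**
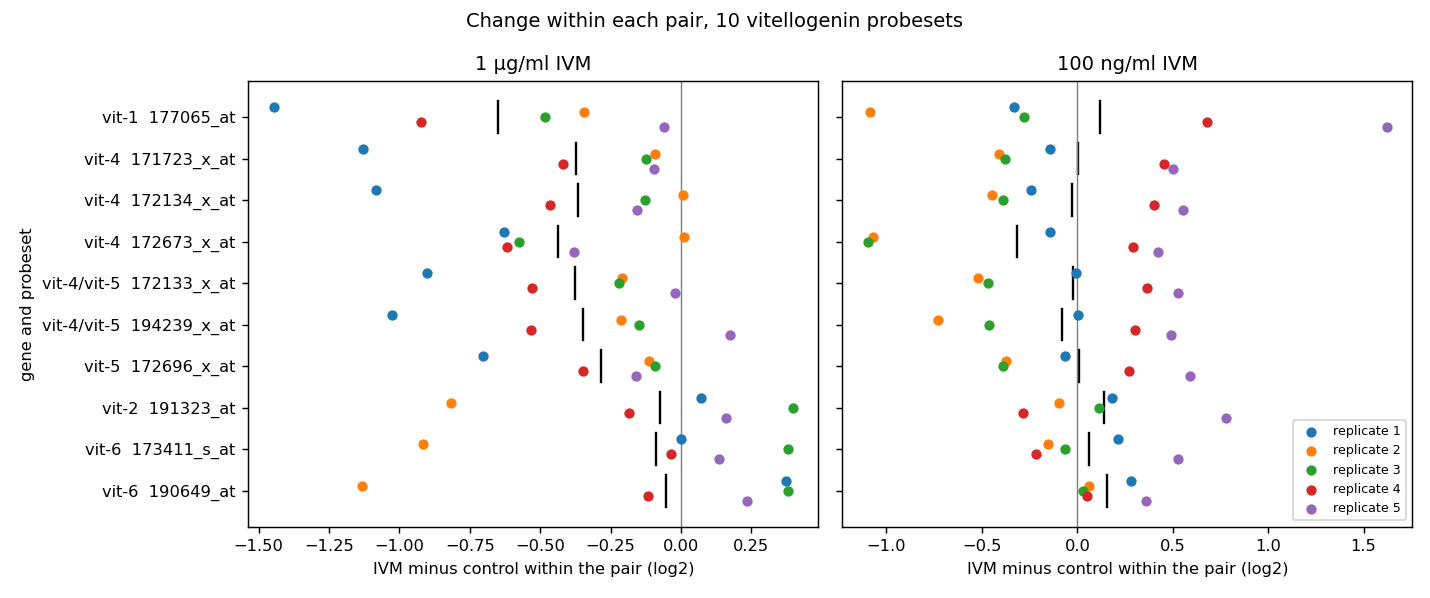
IVM minus control in log2 intensity within each of 5 pairs at 1 µg/ml and 100 ng/ml for 10 vitellogenin probesets, with colours for replicates and black bars for the mean of 5. At 1 µg/ml *vit-1* and *vit-4* (171723_x_at) are negative in all 5 pairs, with replicate 1 lowest at -1.44 and -1.13, while *vit-2* and *vit-6* lie on both sides of 0 with replicate 2 lowest.

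After 4 hr with 100 ng/ml IVM the vitellogenins lay on both sides of their controls, and no member passed the test. No probeset of the array passed the adjusted p of 0.05 in limma, 0% of those tested, while 895 had an unadjusted p under 0.05, 4.35% of all and 0 of 10 members. Without replicate 4, 313 probesets passed, 1.52% of all, and still 0 of 10 members. *vit-1* levels were 9.95, 9.03, 8.61, 10.71 and 9.83 with 100 ng/ml IVM and 10.28, 10.12, 8.89, 10.03 and 8.21 in the controls, so the groups overlapped. Its differences were -0.33, -1.09, -0.28, 0.68 and 1.62, the widest range of any member. Its log2 fold change was 0.12 (SE 0.32, 95% interval -0.60 to 0.84, limma adjusted p = 0.974).

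The close relatives *vit-4* and *vit-5* took the same signs as *vit-1* in each pair at this dose. *vit-4* differed by -0.14, -0.41, -0.38, 0.45 and 0.50 and *vit-5* by -0.07, -0.37, -0.39, 0.27 and 0.59, with means near 0. Their log2 fold changes were 0.01 (SE 0.15) and 0.01 (SE 0.14). *vit-2* levels were 10.26, 10.40, 10.32, 11.24 and 10.31 with 100 ng/ml IVM and 10.08, 10.50, 10.20, 11.53 and 9.54 in the controls, highest in both groups at replicate 4. Its log2 fold change was 0.14 (SE 0.14, 95% interval -0.18 to 0.45). *vit-6* levels were 12.83, 12.66, 12.53, 12.70 and 12.71 with 100 ng/ml IVM and 12.61, 12.82, 12.59, 12.92 and 12.18 in the controls, with a log2 fold change of 0.06 (SE 0.12, 95% interval -0.20 to 0.33). In replicates 1 to 5 the number of vitellogenin probesets lower with IVM was 6, 9, 8, 2 and 0 of 10, where 43.4% to 53.5% of all probesets were lower in each pair. The median log2 fold change was 0.01 over the members and 0.01 over all probesets.

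The change at 1 µg/ml minus the change at 100 ng/ml was negative for 10 of 10 members, from -0.77 (SE 0.42, limma adjusted p = 0.785) for *vit-1* to -0.12 (SE 0.29) for 172673_x_at of *vit-4*. In this contrast 1 probeset of the array passed, 0.00486% of all, and it was no vitellogenin. At an unadjusted p under 0.05 there were 1397, 6.79% of all, and 0 of 10 members. The median was -0.28 over the members and -0.02 over all probesets. Without replicate 2 of the 1 µg/ml experiment both *vit-6* probesets turned to 0.06. A difference between doses in the vitellogenin response was therefore not shown, with intervals as wide as -1.68 to 0.14 for *vit-1*.

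**Figure D5:**
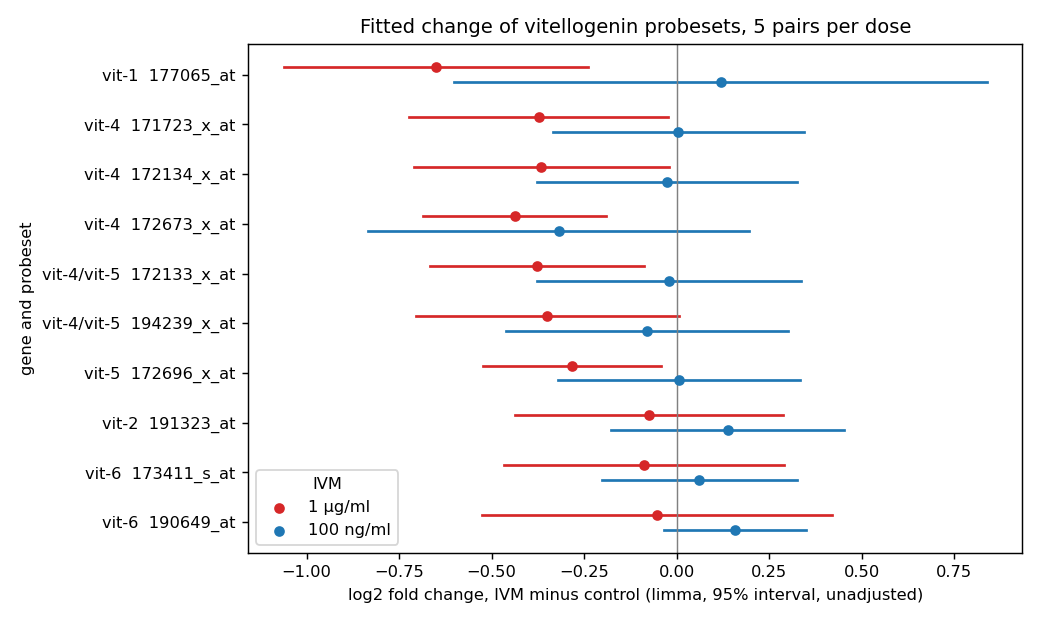
Log2 fold change, IVM minus control, with its 95% interval from limma (not adjusted for the number of probesets) for 10 vitellogenin probesets at 1 µg/ml (red) and 100 ng/ml (blue), 5 pairs per dose. At 1 µg/ml the values run from -0.65 for *vit-1* to -0.05 for 190649_at of *vit-6*, and at 100 ng/ml from -0.32 for 172673_x_at of *vit-4* to 0.16 for 190649_at.

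Within pairs the genes fell into 2 sets by the sign of the difference. *vit-1*, *vit-4* and *vit-5* had the same sign in 10 of 10 pairs over both doses, and *vit-2* and *vit-6* (173411_s_at) in 9 of 10. The other *vit-6* probeset, 190649_at, had the sign of *vit-2* in 8 of 10 pairs and that of 173411_s_at in 7 of 10, with 2 of 5 at 100 ng/ml. Across the sets agreement was lower, with the same sign in 4 of 10 pairs for *vit-1* and *vit-2* and in 5 of 10 for *vit-4* and *vit-6*. The within-pair differences of *vit-4* and *vit-5* lay a median of 0.07 log2 units apart, with a maximum of 0.43, and those of *vit-2* and *vit-6* a median of 0.07 apart, with a maximum of 0.25. *vit-1* and *vit-2* lay a median of 0.79 apart and up to 1.51. In size *vit-1* was less close to its own set, a median of 0.28 from *vit-4* and 0.40 from *vit-5*. Across the sets the medians ran from 0.32 for *vit-5* and *vit-6* to 0.87 for *vit-1* and *vit-6*. *vit-1* therefore joined *vit-4* and *vit-5* by sign and not by size. *vit-4* and *vit-5*, which are close relatives, stood together in both. *vit-1* and *vit-2*, which are also close relatives, stood in different sets by sign. The sets were seen in these data, so no test is given. Probesets of *vit-4* and *vit-5* carry the suffix by which the array marks probes that may also match other transcripts, so cross-hybridization between these genes may hold part of their likeness and was not tested.

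The *vit-4* probesets did not all behave alike. 171723_x_at and 172134_x_at followed each other with r = 0.999 over 20 arrays after the group means were taken off, whereas 172673_x_at had r of 0.48 and 0.49 with them. Over 18 arrays, without replicate 2 of the 1 µg/ml experiment, these were 0.56 and 0.59. There 172673_x_at had r of 0.90 with 190649_at of *vit-6* and 0.87 with *vit-2*. Which transcripts 172673_x_at reads was not tested. In 172673_x_at the levels were 6.49, 6.34, 7.39, 7.59 and 7.37 with 1 µg/ml IVM and 7.12, 6.33, 7.96, 8.21 and 7.75 in the controls. In the 100 ng/ml experiment they were 7.29, 8.28, 7.93, 10.58 and 7.35 with IVM and 7.44, 9.35, 9.03, 10.28 and 6.93 in the controls. Its highest pair was replicate 4 at 100 ng/ml, and its low pair at 1 µg/ml lay much closer to the rest than in the other *vit-4* probesets. The probeset 176872_at, which has no gene in the table used and is named *vit-3* in the lists of the study, had 3.75, 3.41, 4.61, 4.96 and 5.24 with 1 µg/ml IVM and 3.87, 3.39, 5.89, 6.13 and 5.65 in the controls. On the 100 ng/ml arrays it stayed between 3.33 and 3.98. Its log2 fold change at 1 µg/ml was -0.59 (SE 0.20, limma adjusted p = 0.174), and it is not counted among the members. The lowest intensity on any array was 2.74 and the lowest array median 5.58, so many of its values lay low on the scale. How near they lie to the floor was not tested.

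Genes that act on the vitellogenins were followed in lists of known function. Of 27 measured regulators of vitellogenin transcription, 1 rose at 1 µg/ml and 0 fell, a share near the 3.48% called over all probesets. It was *pqm-1*, which encodes a zinc finger transcription factor of the intestine, with a log2 fold change of 0.74 (SE 0.10, limma adjusted p = 0.00794, higher in 5 of 5 pairs). *unc-62* and *ceh-60*, which encode homeodomain factors that act on yolk genes in the intestine, had 0.07 (SE 0.13, limma adjusted p = 0.870) and 0.03 (SE 0.10, limma adjusted p = 0.928). *elt-2*, which encodes the main GATA factor of the intestine, had 0.25 (SE 0.09, limma adjusted p = 0.218). The lowest adjusted p after *pqm-1* belonged to *akt-1*, an insulin pathway kinase gene, with 0.54 (SE 0.14, limma adjusted p = 0.0896). The median of the list was 0.09, against -0.01 over all probesets.

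Of 20 genes for uptake of yolk by oocytes none passed in either direction. *rme-2* had a log2 fold change of -0.33 (SE 0.15, limma adjusted p = 0.349) at 1 µg/ml and of -0.01 (SE 0.10) at 100 ng/ml. Of 21 genes of lipoprotein assembly, lipid carriers and secretion, 1 rose and 1 fell at 1 µg/ml, where 3.48% of all probesets were called in either direction. *pmt-1*, which encodes a methyltransferase of phosphatidylcholine synthesis, rose by 0.68 (SE 0.12, limma adjusted p = 0.0238), and *pept-1*, which encodes the peptide transporter of the intestine, fell by 0.71 (SE 0.12, limma adjusted p = 0.0196). *lbp-6*, a lipid-binding protein gene, had -0.41 (SE 0.09, limma adjusted p = 0.0504).

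Of 18 intestinal genes 1 rose and 2 fell at 1 µg/ml, beside the same 3.48% over all probesets. *ges-1*, the gut esterase gene, rose by 0.91 (SE 0.09, limma adjusted p = 0.00240). *act-5*, which encodes the actin of the intestinal microvilli, fell by 1.11 (SE 0.21, limma adjusted p = 0.0253), and *pept-1* is in this list as well. The oocyte, sperm, germline, cuticle and moult, male and other-tissue lists had 0 calls. *col-19* had -0.18 (SE 0.11, limma adjusted p = 0.505), and *ama-1*, an RNA polymerase subunit gene used as a reference, had -0.15 (SE 0.10, limma adjusted p = 0.580). At 100 ng/ml every list had 0 calls. Without replicate 4 (n = 4 pairs) 2 of 21 genes of the lipoprotein list and 2 of 18 of the intestinal list passed, against 1.52% of all probesets, while the regulators and the uptake genes had 0. The lipoprotein genes were *pcyt-1*, which encodes another enzyme of phosphatidylcholine synthesis, with -0.82 (SE 0.14, limma adjusted p = 0.0183), and *dsc-4*, which encodes the microsomal triglyceride transfer protein that loads lipid onto lipoproteins, with -0.65 (SE 0.10, limma adjusted p = 0.0125). *dsc-4* was named after its values were seen. Over all 5 pairs *dsc-4* had -0.45 (SE 0.16) at 100 ng/ml and -0.58 (SE 0.13, limma adjusted p = 0.0531) at 1 µg/ml. The intestinal genes were *ges-1* with 0.59 (SE 0.10, limma adjusted p = 0.0220) and *act-5* with -0.59 (SE 0.10, limma adjusted p = 0.0157).

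The genes most like the vitellogenins over 20 arrays, after group means were taken off, were led by *skpo-1* (r = 0.982), ZK813.1 (r = 0.981), *stha-3* (r = 0.979) and *ule-5* (r = 0.979) with the mean profile of the 5 genes. They were followed by *perm-2*, a gene of the eggshell permeability barrier (r = 0.977), *rmd-1*, B0513.4, *col-19*, *cpg-1* and *cpg-3* (r = 0.976 each), of which *cpg-1* encodes an eggshell proteoglycan. All 10 were low at replicate 2 of the 1 µg/ml experiment. *skpo-1* stood at 4.70 with IVM and 4.38 in the control there, against 8.27 to 8.91 on the other 8 arrays, and *perm-2* at 6.48 and 6.88 against 10.97 to 12.02. Without that pair, over 18 arrays, only B0513.4 remained among the 10, and *cht-3* (r = 0.948), *meg-3* (r = 0.942) and C49F5.6 (r = 0.940) led. The likeness over 20 arrays thus rests on the low pair. Arrays of a pair share their worms, so these are 10 cultures.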

How the data were processed

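RNA of 20 whole-worm samples was hybridised by the authors to Affymetrix *C. elegans* GeneChips. The authors deposited log2 probeset intensities that their processing notes name as RMA values, and name limma; versions are not given in the sources used here. The methods state that possible outlier arrays were removed, without naming them. The description field of the labels names other treatments (ABZ, more DMSO) and was not used, since titles, source names and exposure labels concur. Of 20575 probesets, 12 spike-in controls were left out, and no filter on low values was set. The annotation gives 19181 probesets 1 gene, 803 several and 579 none. No detection calls or background values were analysed here, so the number of arrays sets the precision.

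For each dose, IVM was compared with control on 10 arrays by limma 3.58.1 under R 4.3.3. The model took replicate as a block and left 4 residual degrees of freedom, and p values were adjusted by Benjamini-Hochberg over 20563 probesets. The contrast of doses used 20 arrays, 10 blocks and 8 residual degrees of freedom. The pairing comes from the methods and the replicate numbers. Deviations from group means correlated within pairs, with r of 0.499 to 0.884 in the 1 µg/ml experiment and r of 0.553 to 0.883 in the other. In replicate 3 at 1 µg/ml (0.499 against 0.673) and replicate 5 at 100 ng/ml (0.729 against 0.815) the IVM array was closer to the control of another number. The fits were tested on simulated data. Rank Products, also named in the methods, resamples over genes and was not run. By that method, at a cut-off other than the one used here, the study gives *vit-1*, *vit-3* and *vit-4* as lower at 1 µg/ml.

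Members, gene lists and tests were chosen with earlier results of these data known. Named genes are the members, up to 4 genes with the smallest p at 1 µg/ml in each list, *rme-2*, *unc-62*, *ceh-60*, *elt-2*, *col-19* and *ama-1*, and the 10 genes most like the members. 176872_at was found through the study's own lists and is given apart. A planned search of promoter windows was not run, as no promoter sequences were used here. Alternatives were no replicate block, all 20 arrays in 1 fit, quantile normalization, median centring, array weights, a trended and robust eBayes, only probesets above the median level, an adjusted p under 0.10 and leaving out each replicate. Tables were handled in Python 3.11.15 with pandas 2.3.3 and numpy 2.4.6, and plots drawn with matplotlib 3.10.9.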

Additional observations from a re-analysis of the deposited data

Results flagged for a closer look

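Levels in 4 groups and differences at 2 doses for each of 5 genes gave 30 groups of 5 values. In 8 of them 1 array stood apart from the other 4 by Dixon's ratio above 0.71. Chance flags about 1 in 20 such groups if they are independent. The 30 groups were not, since the genes share their arrays and the arrays of a pair share their worms. Of the 8, 7 were replicate 2 of the 1 µg/ml experiment. They were *vit-2* with IVM (4.36) and in the control (5.18), *vit-5* with IVM (6.43) and in the control (6.55), *vit-6* with IVM (7.57) and in the control (8.49), and *vit-4* in the control (5.91). The other was *vit-2* in replicate 4 with 100 ng/ml IVM (11.2), which stood above the rest of its group and whose control array was also the highest of its group.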

How the results depend on the processing

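Of the values of single vitellogenin probesets under the alternatives, 115 at 1 µg/ml, 101 at 100 ng/ml and 156 in the contrast of doses kept their sign and their side of the threshold, 3, 19 and 4 turned their sign, and 2 at 1 µg/ml passed the threshold. The count of vitellogenin probesets passing at 1 µg/ml was 1 with array quality weights and 1 at an adjusted p under 0.10, in place of 0, and 0 to 1 when a replicate was left out, with 1 without replicate 2. Over the whole array at 1 µg/ml the count of 715 became 1234 at an adjusted p under 0.10 and 205 to 707 when a replicate was left out, with the fewest without replicates 1 (205) and 4 (218). Without the replicate block, that is with no pairing, 64 probesets passed at 1 µg/ml and the count of vitellogenins stayed at 0 in each comparison. At 100 ng/ml 0 to 313 passed when a replicate was left out. The median SD between cultures of 1.83 ranged from 0.535 without replicate 2 of the 1 µg/ml experiment to 1.94. Of the 10 genes most like the vitellogenins, 1 was shared without that pair, an alternative chosen after seeing the data, as were the member counts without replicates 1 and 2.

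At 100 ng/ml the log2 fold change became -0.055 for *vit-4* (171723_x_at), -0.037 for *vit-5* and -0.032 for *vit-1* with array quality weights, and -0.0054 for *vit-5* with quantile normalization. When a replicate was left out at 1 µg/ml, it ranged from -0.19 to 0.11 for *vit-2*, from -0.20 to 0.12 for *vit-6* (173411_s_at) and from -0.16 to 0.22 for 190649_at. At 100 ng/ml it ranged from -0.26 to 0.42 for *vit-1*, from -0.022 to 0.24 for *vit-2*, from -0.12 to 0.11 for *vit-4* (171723_x_at), from -0.17 to 0.079 for 172134_x_at, from -0.14 to 0.10 for *vit-5*, from -0.16 to 0.10 for 172133_x_at, from -0.22 to 0.084 for 194239_x_at and from -0.055 to 0.13 for *vit-6* (173411_s_at). In the contrast of doses it ranged from -0.31 to 0.067 for 172673_x_at, from -0.27 to 0.058 for *vit-6* (173411_s_at) and from -0.32 to 0.060 for 190649_at. The cause of these turns was not tested. With 5 arrays a group and no background values, how near the low pair lies to the floor of the array was not tested.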
